A study of Homo sapiens with 10 samples.

Results

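The 962 m6A peaks described here were the only peak listed for their gene in HCT116 cells, a human colorectal carcinoma line. A gene was taken where each of the 2 m6A lists held exactly 1 window for it and the windows shared at least 1 base. The window had to start from base 200 to before base 4000 of the transcript and to be narrower than 250 bases in both lists. Of 9549 genes with a listed window, 1433 had exactly 1 in each list, the windows of 1287 shared a base, and 962 met the limits. These hosts were 10.1% of all m6A genes, against 5109 genes with at least 2 windows in each list. The rule used only the number, overlap, position and width of windows, and no signal or expression value beyond the calling of the windows.

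The series holds 10 HCT116 samples, each labelled with a cycloheximide treatment (3 min, 100 ug/ml). The m6A-seq group has 2 replicates. An immunoprecipitation with antibody to YTHDF1 (RIP) has 1 library and 1 mRNA-seq input from whole cell lysate. Ribosome footprints and mRNA were each measured in 1 control library and in 2 libraries with YTHDF1 knocked down. The control carried a hairpin against GFP, per the file headers. The knockdown libraries are named shY1-1 and shY1-2 (knockdown 1 and 2 here), and it is not clear from the labels if they carry different hairpins. The labels do not say that libraries came from separate cultures, so p-values measure only the spread between these libraries. YTHDF1 itself had an mRNA value of 27.4 in the control and 8.62 and 7.81 in the knockdown libraries, and footprint values of 61.4, 17.0 and 19.9. Of 7 epithelial markers, 5 were in the expression table (EPCAM, KRT8, KRT18, KRT19 and CDH1), with summed mRNA of 3402 to 5497 per library. Of 5 fibroblast, 5 blood and 2 endothelial markers only COL1A1 was in it, at 1.35 to 2.36.

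N6-methyladenosine, or m6A, is a methyl group added to adenosines of mRNA by a nuclear writer complex around METTL3 and METTL14. It is laid down mainly at adenosines of the DRACH motif, often near stop codons and in long internal exons. YTHDF1 is a cytoplasmic reader that binds m6A through its YTH domain and has been linked to the translation of the mRNAs it binds. In m6A-seq, RNA fragments are pulled down with an antibody to m6A, and a peak is a stretch where the pulled-down signal exceeds that of the input.

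Each deposited window comes with a motif of 5 bases, mostly near its summit but not always inside the window. These motifs are the only sequence used here. Those of hosts named below are shown to compare the base context, 5′ to 3′, with the adenosine of the AC core in capitals. Each is from replicate 1, written as DNA.
ATP6V0E1: agAct
MRPL12: agAcc
MRPS18A: gaAca
NDUFB8: ggAct
MRPL32: agAct
TCF7L1: gaAct
DDIT3: aaAca
CDK2: ggAct
FBXL16: gaAcc
DCXR: gaAcc
MRPL55: ggAcc
CCDC51: agAct
HIST2H2AC: gaAca
CENPB: ggAcc
Every window in both lists carried 1 of the 12 forms of this motif (A or G, then A or G, then AC, then A, C or T), so its presence sets no window apart. Among the sole peaks of replicate 1, 30.6% had the core GGAC, 27.0% AGAC, 21.9% GAAC and 20.5% AAAC. The other windows of that list had 30.7%, 25.4%, 23.4% and 20.5%, so no core differed by more than a few percentage points. Median peak ratios by core lay between 5.65 for GGAC and 6.21 for AAAC.

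The listed motif sat at the same transcript position in both replicates for 812 of the 962 peaks (84.4%). All of the genes listed above have the same motif position in both replicates. In the other 150 the position moved by a median of 57.5 bases, and in MYLK, for example, the motif was gaAca at base 3767 in replicate 1 and gaAct at base 3829 in replicate 2. Summits were within 25 bases of each other for 841 peaks. The median distance from motif to summit was 18 bases, and the longest was 142. The motif position lay inside the window for 786 of the 962 peaks in replicate 1 and for 787 in replicate 2, and outside it for the others. The files do not name the transcript that positions refer to, nor which base of the motif a position marks.

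The peaks started at lower base positions than other windows, counted in bases and not as a share of transcript length. Their windows started at a median of base 925 in replicate 1, against base 1475 for the other windows that met the same limits on start and width. The first bin, 200 to 499, held 183 peaks (19.0%), the bin of 500 to 999 held 344 (35.8%), and that of 1000 to 1499 held 213 (22.1%). Only 20 peaks started at base 3000 or later. The limits of the rule and the lengths of transcripts both bear on this distribution, and transcript length was not analysed here. Median peak ratios in replicate 1 ranged from 5.29 in the first bin to 7.85 in the last, without a steady order between them (6.03, 6.20, 5.83 and 5.53).

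**Figure D1:**
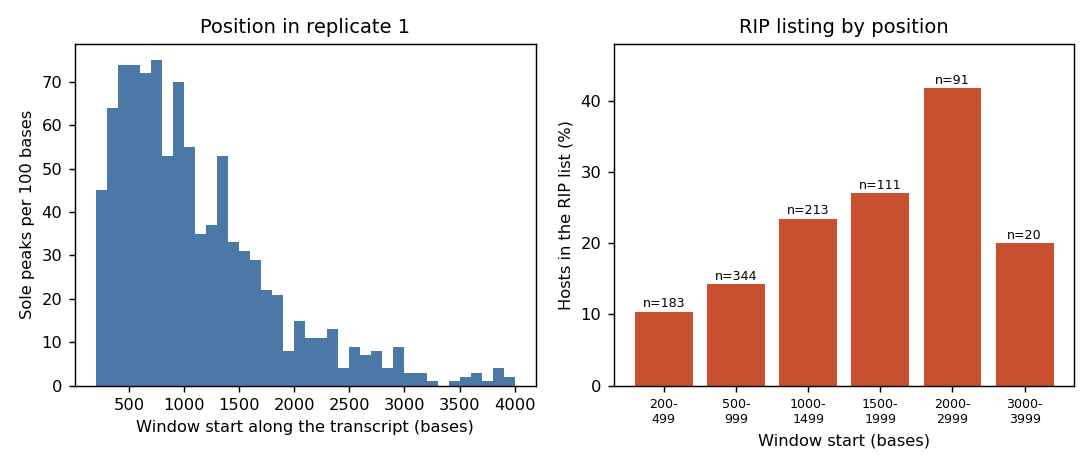
Left, number of sole peaks per 100 bases of window start along the transcript in replicate 1; right, share of host genes in the YTHDF1 RIP list by window start, with the number of hosts (n) above each bar. Starts are concentrated below base 1500, and the RIP share runs from 10.4% in the first bin to 41.8% at 2000 to 2999.

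Peaks just inside and just outside the limits of the rule had these values in replicates 1 and 2. The 10 peaks that started at base 200 in a replicate had median peak ratios of 3.67 and 4.48, and 13 peaks that started at base 175 in a replicate, among them windows of up to 275 bases, had 5.34 and 5.96. At the far end, GLG1 (start 3900) and PPIP5K2 (start 3975) were the last inside, with median ratios of 5.44 and 7.14. AC010642.1 and ZNF607 (starts of 4025 and 4050) were the first outside, with 5.28 and 8.16. The 78 peaks with a width of 225 bases had 5.66 and 5.89, and 42 with a width of 250 bases had 5.70 and 6.30.

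The enrichment of these peaks was moderate. The peak ratio, the authors' signal in the immunoprecipitate divided by that in the input, had a median of 5.85 in replicate 1 (quartiles 4.29 and 9.07, n = 944) and 6.03 in replicate 2 (4.34 and 9.74, n = 945). Other windows within the same limits, which unlike the sole peaks did not have to be called in both replicates, had medians of 5.41 and 5.32. The highest window of each gene with at least 2 windows per list had 10.3 and 10.2. Thus the single peak of a host stood near the ordinary window of the lists and below the strongest window of a multiply marked gene, where the latter is the largest of several. Ratios of at least 10 in both replicates were found for 151 peaks, and ratios below 4 in both for 106. The lists hold no ratio under 3.

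Replicate ratios differed by a median of 1.21-fold, and by at most 6.56-fold. The correlation of log2 ratios across 943 peaks was r = 0.83 (Spearman's coefficient 0.76), but these points share their denominator: in all 444 sole peaks with the same window in both lists the input value was identical. The replicates therefore have 1 input signal in common. The log2 signal of the immunoprecipitate alone gave r = 0.79 (Spearman 0.77, n = 962). Low input accompanied high ratios. With the peaks put in 4 groups of nearly equal size by input, the median ratio in replicate 1 was 9.16 at the lowest inputs (0 to 66.9) and 5.78, 5.45 and 5.13 in the next groups. For 16 peaks the input was 0 in both replicates and no ratio is listed.

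**Figure D2:**
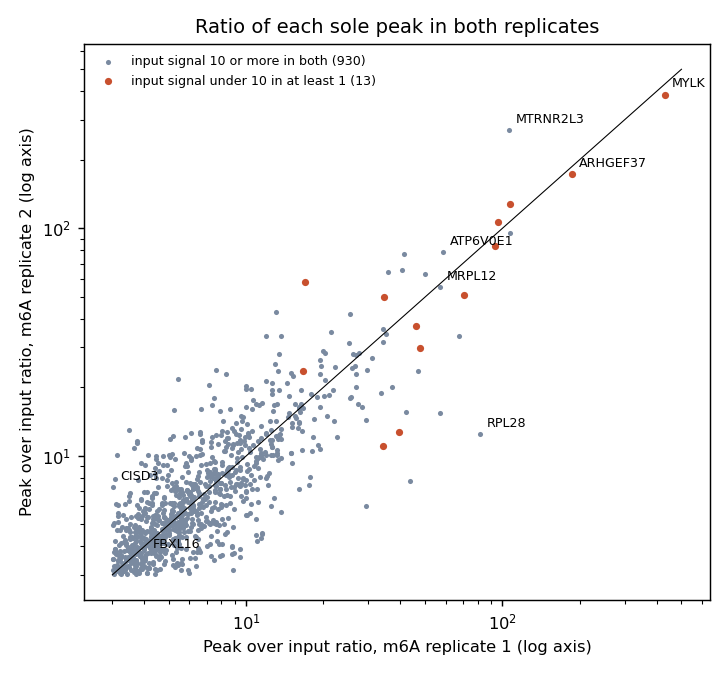
Peak over input ratio of each sole peak in m6A replicate 1 (x, log axis) and replicate 2 (y, log axis) for 943 peaks with a ratio in both; the line marks equal values. The 13 peaks with an input signal under 10 in at least 1 replicate (red) include MYLK at 430.5 and 387.

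The highest ratios thus stood largely on small inputs. MYLK, which encodes myosin light chain kinase (chromosome 3, 123610049 to 123884332, GRCh38.p14), had 430.5 and 387 over an input of 2. ARHGEF37, a guanine nucleotide exchange factor (chromosome 5, 149551625 to 149634968), had 187 and 173 over an input of 6. ITGAV, the integrin alpha V subunit (chromosome 2, 186590056 to 186680901), had 108 and 128 over 8. Of the 10 genes with the highest ratio in their lower replicate, 6 had an input under 10 in both, the others of these being EMD, CCDC101 and BTBD10. MTRNR2L3 (106 and 270) and MTRNR2L11 (107 and 95) are near copies of mitochondrial ribosomal RNA sequence, so their reads could be shared with it and their values are uncertain.

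The remaining pair of the 10 had a high ratio over an input well above 10, where the median input of the sole peaks in replicate 1 was 115. ATP6V0E1, a subunit of the proton-pumping V-type ATPase (chromosome 5, 172983771 to 173035445), had 58.5 and 78.3 over an input of 145. MRPL12, a protein of the large mitochondrial ribosomal subunit (chromosome 17, 81703367 to 81707517), had 57.1 and 55.3 over 95. At the low end lay CISD3 (3.01 and 7.29), an iron-sulfur protein of mitochondria, FARSA (3.01 and 3.14), a subunit of phenylalanyl-tRNA synthetase, APOA1BP (3.01 and 3.53) and ZFYVE21 (3.70 and 3.01).

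Input could be held to at least 117, its median over the sole peaks in replicate 2, and 421 of them met this in both replicates. Their median ratios were 5.27 and 5.44, and 38 of them had at least 10 in both. Besides the MTRNR2L genes and ATP6V0E1, the highest, chosen after their values were seen, were 3 genes of mitochondrial machines. MRPS18A (chromosome 6, 43671202 to 43687791) had 41.3 and 76.9, NDUFB8 of respiratory complex I (chromosome 10, 100523729 to 100529923) had 40.5 and 65.6, and MRPL32 (chromosome 7, 42932376 to 42937857) had 35.7 and 64.2. UBE2Q1, a ubiquitin-conjugating enzyme, had 26.5 and 24.9, and RPL41, the smallest cytosolic ribosomal protein, had 46.7 and 23.6. All of these lay above the upper quartile of 9.07 and 9.74 in both replicates, which follows from their choice as the highest.

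Host genes were sorted into lists by gene symbol. Several lists match a family symbol, so they can hold genes of other function. Examples are CDK5RAP1 among the protein kinases and SLC22A18AS among the solute carriers. The respiratory chain list likewise holds COX14, COX20 and UQCC2. Of the lists with at least 15 m6A genes, those of ribosomal proteins, histones and the respiratory chain had the largest shares. Against the 10.1% of all m6A genes that were hosts, 19 of 53 mitochondrial ribosomal protein genes were hosts (35.8%), as were 15 of 46 cytosolic ribosomal protein genes (32.6%), 12 of 60 respiratory chain genes (20.0%) and 6 of 23 replication-dependent histone genes (26.1%). The lists of cytosolic ribosomal proteins without kinases, of histones and of chaperones (8 of 48, 16.7%) were added after the files were seen. Cytosolic ribosomal protein, histone and metallothionein genes belong to families with near-identical copies or pseudogenes, so their reads could be split between copies.

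Several regulatory families had smaller shares, though not all. Hosts were 19 of 311 zinc finger genes (6.11%) and 7 of 138 genes with a protein kinase family symbol (5.07%). They were also 3 of 102 chromatin modifiers (2.94%: HDAC1, PHF5A and SMARCC2) and 1 of 45 Wnt pathway genes (2.22%). None of 17 m6A writers, erasers and readers and none of 21 p53 targets was a host. Solute carriers (20 of 175, 11.4%), vesicle transport genes (22 of 191, 11.5%) and ubiquitin enzymes (24 of 249, 9.64%) were close to the overall share. So were cell cycle genes (4 of 34, 11.8%). These shares describe the lists and were not tested. Of the 962 hosts, 942 matched a RefSeq gene annotated as protein coding, 3 a long noncoding RNA, 4 a pseudogene and 3 a transcribed pseudogene, and 10 had no match.

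**Figure D3:**
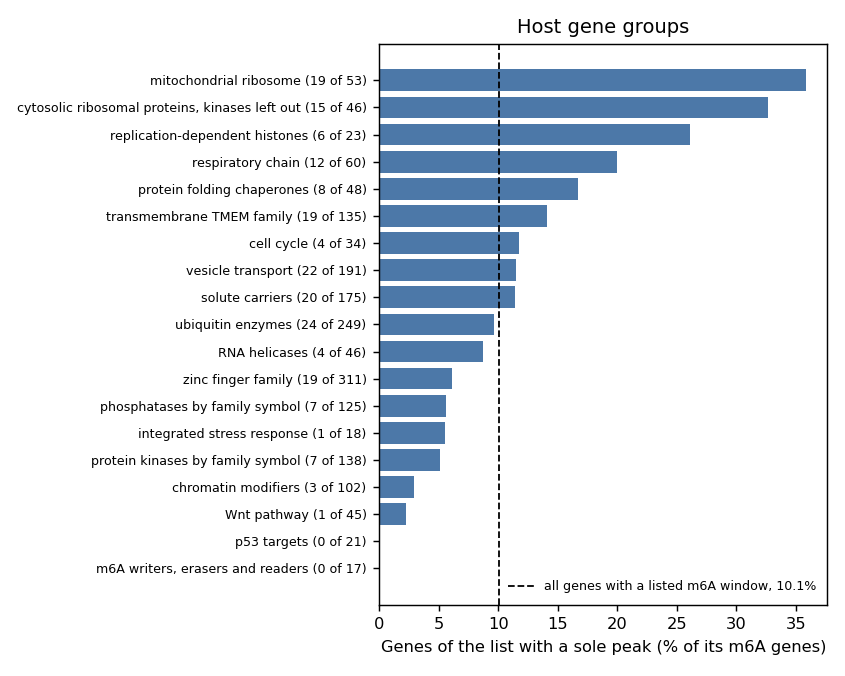
For each gene list, the share of its m6A genes that carried a sole peak (% of the list's m6A genes, bars from 0), with counts beside the names; the dashed line is the 10.1% of all m6A genes. Mitochondrial and cytosolic ribosomal proteins lie farthest to the right, and m6A machinery and p53 targets are at 0.

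The mitochondrial ribosome, which translates the proteins encoded in mitochondrial DNA, had the highest median ratios of the lists with at least 4 hosts. The 18 of its 19 hosts with a ratio had medians of 10.1 and 11.5, against 5.85 and 6.03 over all sole peaks. MRPS15 had 41.9 and 15.6 and MRPL23 had 11.9 and 33.8, so replicates of single members could lie well apart. At the low end MRPS9 had 3.62 and 4.35. MRPS5 (47.6 and 29.7) stood on an input of 3.51, and MRPL20 had an input of 0 in both replicates. In the respiratory chain the 12 hosts had medians of 6.45 and 7.87, with NDUFB8 far above the rest and COX14 lowest at 3.02 and 3.50. Among cytosolic ribosomal proteins RPL28 differed most between replicates, at 81.6 and 12.4.

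Of the Wnt, stress response and cell cycle lists, the hosts were few and are given whole. TCF7L1, a TCF/LEF transcription factor of the Wnt pathway (chromosome 2, 85133392 to 85310387), had a strong peak at base 2525, with ratios of 29.7 and 23.7 over an input of 13.0. DDIT3, the stress-induced transcription factor CHOP (chromosome 12, 57516588 to 57520517), had 16.1 and 16.5 over 76.9. Cell cycle hosts all had lower ratios than these: AURKB, the Aurora B kinase of chromosome segregation (4.46 and 4.03), CDC20, an activator of the anaphase-promoting complex (4.83 and 4.82), the phosphatase CDC25C (6.24 and 7.22) and the kinase CDK2 (5.29 and 6.98).

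The YTHDF1 RIP list held a smaller share of the hosts than of m6A genes in general. That list gives FPKM in the RIP and in its input, and only genes with a ratio of at least 1.5 and an input of at least 1 FPKM are in it. It held 190 of the 962 hosts, or 19.8% (95% Wilson interval 17.4 to 22.4, counting error only), against 38.3% of all m6A genes. By the number of windows in the replicate with fewer, the share was 38.5% at 2 windows, 48.6% at 3, 59.0% at 4 and 76.2% (73.4 to 78.8) at 5 or more. Genes with 1 window in each list that did not meet the rule had 19.1% (15.8 to 22.9), an interval that overlaps that of the hosts. With 1 RIP library there is no replicate check of any of these values, and genes are not replicates.

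**Figure D4:**
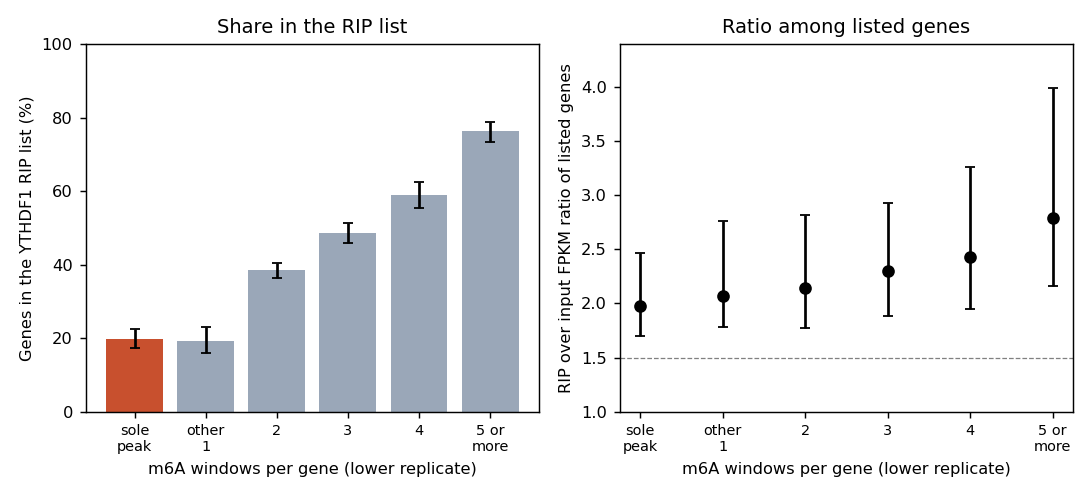
Left, share of genes in the RIP list by number of m6A windows per gene, with 95% Wilson intervals; right, median RIP over input ratio of the listed genes with quartiles as bars and the lower limit of the list, 1.5, as a dashed line. Sole-peak hosts (19.8%) and the other genes with 1 window in each list (19.1%) lie together below genes with more windows.

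Expression level differed between these groups, so the share was also taken in 4 ranges of control mRNA that split the expression table evenly. Hosts had 24.0%, 24.2%, 29.0% and 12.6% from the lowest to the highest range, and genes with at least 2 windows had 56.5%, 60.1%, 55.6% and 37.7%. The share of hosts was the lower in each range, for the 542 hosts in the expression table. Hosts outside it could not be placed in a range, and the part of transcript length was not tested. Within the hosts the share in the RIP list ran with position, from 10.4% of 183 at starts of 200 to 499 through 14.2%, 23.5% and 27.0% to 41.8% of 91 at 2000 to 2999. It was 20.0% of 20 in the last bin. Transcript length may vary along with position, and its part was not tested.

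Listed hosts also had modest ratios. Their median was 1.98 (quartiles 1.70 and 2.47), against 2.28 for the whole list and 2.79 for genes with at least 5 windows. A ratio of at least 3 was found for 26 of 190 hosts (13.7%), against 25.9% of the list. Peak ratio and RIP ratio were nearly unrelated across the 187 hosts with both (r = 0.02, Spearman 0.07, 1 point per gene from the same libraries). Among the listed hosts the RIP ratio thus did not follow the strength of the sole peak in these libraries. Hosts outside the list have no RIP ratio, and both ratios have a lower limit (1.5 and 3). The correlation therefore cannot speak for values below these limits.

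Among hosts with a RIP input at or above the list's median of 4.90 FPKM, 1 gene stood far apart. HIST2H2AC, a replication-dependent histone H2A gene (chromosome 1, 149886918 to 149887411), had 459 FPKM in the RIP and 11.3 in the input, a ratio of 40.7. Its peak ratios were only 5.47 and 6.0. Next was KLHL36, a BTB-kelch protein, at 31.7 and 5.81 FPKM (5.45), followed by CEP131, a centrosomal protein, at 53.1 and 14.3 (3.71). INCENP, the scaffold that holds Aurora B in the chromosomal passenger complex, had 118 and 33.8 (3.49), while AURKB itself was not in the list. DDX23, a helicase of the spliceosome (3.16), OGDH, a subunit of the oxoglutarate dehydrogenase complex (3.06), GLG1 (3.05), AMBRA1, an autophagy regulator (3.01), the chaperone HSPA1A (3.00) and the centromere protein CENPB (3.00) completed the highest 10. The lowest were LRPAP1 (1.5) and P4HB, ZFP1, SMARCC2 and PRR5 (each 1.52).

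The histone hosts outside that input limit, chosen after their values were seen, also had high ratios over small inputs. HIST1H2BC had 1759 FPKM in the RIP and 2.71 in the input (650), HIST1H2AI had a ratio of 82.0 and H2BFS of 29.0. In all, 4 of the 6 histone hosts were in the list, against 10 of 23 m6A histone genes (43.5%) and 38.3% of all m6A genes. Replication-dependent histone mRNAs end in a stem-loop and carry no poly(A) tail, and how this bears on the mRNA-seq input was not tested.

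Ribosomal protein hosts were nearly absent from the RIP list. None of the 19 mitochondrial ribosomal hosts and none of the 12 respiratory chain hosts was in it, and of 15 cytosolic ribosomal hosts only RPL29 was, at 571 and 357 FPKM (1.60). Of all m6A genes on these lists 1 of 53, 6 of 60 and 1 of 46 were in the RIP list, against 38.3% of all m6A genes. Genes with at least 2 windows in each m6A list numbered 15, 13 and 8, and their RIP listing was not counted apart. The 12 mitochondrial ribosomal hosts in the expression table had control mRNA values from 28.4 (MRPL40) to 174 (MRPL20), and the part of expression level in the listing was not tested.

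Values after knockdown exist for 542 hosts, and 536 passed the filter on low values. The table holds 6914 named genes, with a minimum of 0.5 in the control, so hosts under that value in the control are not in it. The deposited values are a relative abundance of unnamed unit. In the control the median host had an mRNA value of 19.9 and a footprint value of 50.4, above the 11.6 and 26.5 of all genes in the table. The ratio of footprints to mRNA in the control, a measure of translational efficiency, had a median of 2.29 for hosts and 2.29 for all genes.

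No host passed the adjusted threshold of 0.05 by limma for footprints, and 0.0295% of the 6782 genes tested did. That fit uses 1 spread per gene for both assays, and it has no term shared by knockdown libraries of the same number. With such a term the calls for footprints and efficiency changed, as given in the section on processing. At an unadjusted p under 0.05 there were 58 hosts (10.8%), against 8.85% of all genes. Of these, 15 were higher in knockdown and 43 lower, where 1.86% and 6.99% of all genes were. Median log2 differences, knockdown minus control on the log2(value + 1) scale, were −0.31 for hosts and −0.28 for all genes, so the hosts lay 0.03 below the general shift. The host medians were −0.26 in knockdown 1 and −0.35 in knockdown 2. Both knockdown libraries lay below the control for 295 hosts (55.0%, against 51.2% of all genes). Without knockdown 2 of the footprint libraries 7 hosts passed the adjusted threshold (80 of all genes), and without knockdown 1 it was 1 host (8 of all genes). The summed footprint values were 1227320 in the control and 938928 and 1041090 in the knockdown libraries, and their part in the general shift was not tested. The directions depend on scaling: with the median of each library set equal, the 58 hosts became 40, of which 26 were higher and 14 lower.

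For mRNA, limma passed no host and 0% of all genes. Only 3 hosts (0.560%) had an unadjusted p under 0.05, against 0.472% of all genes. All 3 were lower in knockdown (of all genes 0.177% were higher and 0.295% lower), and the host median was −0.04 against −0.01. Translational efficiency, tested as the difference between the footprint and mRNA contrasts, likewise passed no host and 0% of all genes. At an unadjusted p under 0.05 there were 21 hosts (3.92%), against 2.73% of all genes. Of these 6 were higher and 15 lower, where 0.59% and 2.14% of all genes were. This split turned to 14 higher and 6 lower with median centring, and the count ranged from 6 to 47 hosts without 1 library. The lowest counts were 9 and 6, without mRNA knockdown 1 or 2, and the highest were 37 and 47, without footprint knockdown 1 or 2. With all libraries the smallest adjusted p of a host was 0.675. Medians were −0.27 for hosts and −0.27 for all genes tested.

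**Figure D5:**
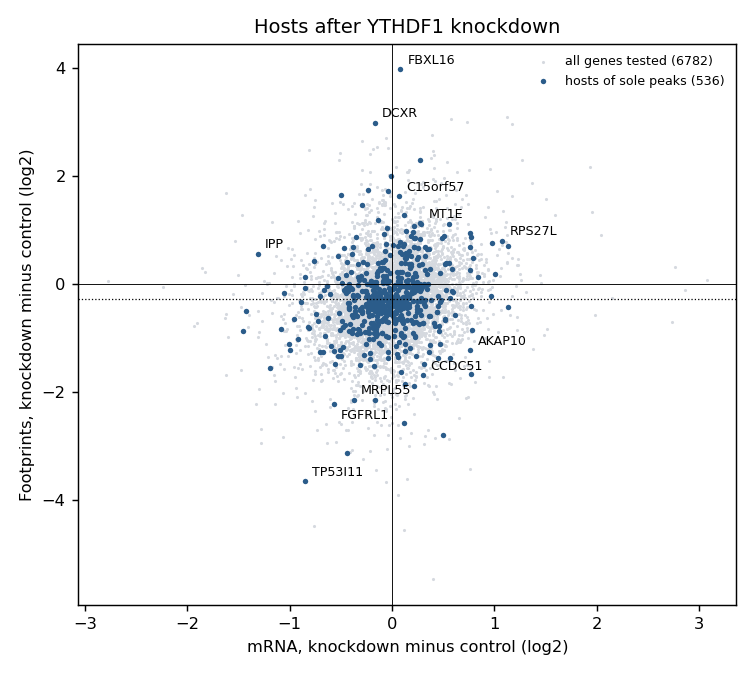
Difference in mRNA (x) and footprints (y), mean of the knockdown libraries minus the control on the log2(value + 1) scale, for 536 hosts of sole peaks (blue) over all 6782 genes tested (grey); the dotted line is the median footprint difference of all genes, −0.28. Hosts are spread around the same centre as all genes, with FBXL16 and DCXR highest in footprints and TP53I11 lowest.

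Medians of hosts split by other readouts were as follows. The 110 tested hosts in the RIP list had a median footprint difference of −0.42 and an efficiency difference of −0.35, against −0.29 and −0.24 for the 426 not in it. The 75 hosts with a peak ratio of at least 10 in both replicates had an efficiency difference of −0.21, and the 60 with a ratio below 4 in both had −0.42. By window start, the medians went from −0.19 at 200 to 499 through −0.25, −0.27, −0.36 and −0.40 to −0.43 at 3000 or later (103, 189, 114, 62, 54 and 14 hosts). Across 528 hosts, log2 peak ratio and efficiency difference had r = 0.04 (Spearman 0.03). These subsets were compared with no test.

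The host with the largest positive footprint difference was FBXL16, an F-box protein of the leucine-rich repeat class (chromosome 16, 692500 to 705801). Footprints stood at 4.67 in the control and at 94.7 and 80.9 after knockdown, while its mRNA was 15.7, 18.7 and 14.8. Both knockdown footprint libraries lay far above the control, and the mRNA libraries lay on either side of it. Knockdown libraries on the same side of the control were a condition for naming genes by a contrast, here and below. The footprint log2 difference was 3.96 (SE 0.39) with an adjusted p of 0.0751 by limma. Its peak at base 325 was weak (4.03 and 3.65), and its RIP ratio was 1.58.

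DCXR, which encodes dicarbonyl and L-xylulose reductase (chromosome 17, 82035858 to 82037697), was next. Footprints were 196 in the control and 1921 and 1245 in the knockdown libraries, with mRNA of 136, 106 and 136. The footprint log2 difference was 2.97 (SE 0.37, adjusted p = 0.144 by limma). Its peak was stronger (14.6 and 15.4), and it was not in the RIP list. C15orf57 (42.4 against 149 and 117), the metallothionein MT1E (2321 against 4931 and 5057) and ZWILCH of the kinetochore RZZ complex (45.5 against 125 and 97.8) also had higher footprints in both knockdown libraries, at an adjusted p of 0.552 by limma.

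In the other direction, MRPL55 of the mitochondrial large subunit (chromosome 1, 228106685 to 228109299) had a footprint value of 383 in the control and 71.3 and 102 in the knockdown libraries. Its mRNA was 49.2, 36.4 and 39.1. The footprint log2 difference was −2.15 (SE 0.35, adjusted p = 0.363 by limma). It was not typical of its group: the 12 tested mitochondrial ribosomal hosts had a median footprint difference of −0.14, and MRPL20, for one, had 161, 354 and 275.

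CCDC51, which encodes a mitochondrial inner membrane protein (chromosome 3, 48432173 to 48446652), had footprint values of 482, 168 and 130, beside 29.7, 40.5 and 33.8 for mRNA. Here the footprint libraries of the knockdown were both below the control and the mRNA libraries both above it (efficiency log2 difference −2.0, SE 0.48, adjusted p = 0.996 by limma). FGFRL1, an FGF receptor-like protein (20.6 against 3.14 and 4.07), TP53I11 (193 against 5.59 and 35.0) and MAGOH of the exon junction complex (452 against 229 and 198) also had lower footprints in both. The knockdown libraries of TP53I11 were themselves far apart. UBE2Q1, named above for its peak, had footprints of 111 in the control and 46.6 and 52.9 in knockdown, at nearly constant mRNA (37.5, 38.1 and 39.0).

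AKAP10, an anchoring protein for protein kinase A (chromosome 17, 19904302 to 19977828), had mRNA of 12.3 in the control and 21.5 and 21.7 in knockdown, and footprints of 79.1, 32.0 and 34.3. Its knockdown libraries lay close to each other, and they were on opposite sides of the control in the 2 assays (efficiency log2 difference −2.0, SE 0.51, adjusted p = 0.996 by limma). VIPAS39, a vesicle trafficking protein, had footprints of 38.8, 13.1 and 16.3 with mRNA of 8.56, 9.53 and 11. With higher efficiency in both knockdown libraries were IPP, a kelch protein (footprints 10.4, 17.5 and 14.1; mRNA 10.8, 3.34 and 4.22), and SLC16A6, a transporter of the monocarboxylate family (footprints 1.70, 13.6 and 6.83).

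For mRNA, the other named hosts with higher values in both knockdown libraries were RPS27L, a paralog of ribosomal protein S27 (24.4 in the control, 76.7 and 36.0), NIFK, a nucleolar protein (111, 175 and 161), KDSR, an enzyme of sphingolipid synthesis (6.6, 14.4 and 11), and CRYZL1 (9.27, 13.0 and 15.9). Lower in both were PTMS, the acidic protein parathymosin (121, 59.8 and 63.9), ZFP1 (27.9, 6.48 and 13.8), XBP1, a transcription factor of the unfolded protein response (101, 71.6 and 43.3), and MED28 of the Mediator complex (56.4, 28.7 and 39.9). All had an adjusted p of 1.00 by limma. The knockdown libraries of RPS27L differed from each other about as much as from the control.

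Hosts of the lists given whole above did not pass for any contrast. CDK2 had footprints of 219 in the control and 68.2 and 126 in the knockdown libraries, CDC20 had 382, 158 and 280, and AURKB had 307, 268 and 306. In all 3 the knockdown libraries lay below the control, with AURKB barely so in knockdown 2. For mRNA, CDK2 had 162, 75.6 and 170 and CDC20 had 341, 170 and 336, so knockdown 1 was low and knockdown 2 near the control. TCF7L1 had low footprints throughout (2.93, 3.19 and 0.652), and DDIT3 and CDC25C are not in the expression table.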

How the data were processed

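Values are as the authors deposited them. STAR and GRCh38 are named in the submitters' processing notes, without role or version. The tools for peak calling and counting were not given in the sources used here. Per the file headers, each m6A list gives a window, a summit, the peak signal in immunoprecipitate and input, their ratio, and a motif with its position along an unnamed transcript. The lists were deposited per replicate and hold ratios of at least 3. The RIP list gives FPKM in RIP and input and their ratio, deposited by the authors and never under 1.5. Footprints and mRNA are a deposited signal of relative abundance per gene, with no unit in the file headers. Depth is unknown in all files, so no count model was used.

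The members and gene lists were chosen with earlier results of these data known. Of 18 lists chosen at the start and 4 added after the files were seen, the text gives those it uses. Names damaged by a spreadsheet (12 in the expression table) were left out. Footprints and mRNA were fitted together as log2(value + 1) with limma-trend (limma 3.58.1, R 4.3.3), 1 mean per assay and condition and 2 residual degrees of freedom. With 1 control library per assay, the fit takes the spread of controls to equal that among knockdown libraries. It also uses 1 spread per gene for footprints and mRNA, so the p-values of either assay rest on libraries of both. If the assays differ in spread, counts of hosts by p-value cannot be compared between them. A mean log2(value + 1) of at least 1 was required, which left 6782 genes to test, 2-sided, with Benjamini-Hochberg adjustment over all of them. The fit was also run on simulated data that had the same spread in both assays and no replicate term. That run therefore cannot show how a departure from either would change the p-values. The m6A and RIP values were described without a test. Positions of genes are from RefSeq on GRCh38.p14, where 882 hosts matched by symbol and 70 by synonym. A planned comparison of peak position with coding length was not made, and coding lengths were not used here.

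The genes named were the 10 highest and 5 lowest peak ratios (by the lower replicate), and the 10 highest and 5 lowest RIP ratios with an input at or above the list's median. For each contrast they were the 5 smallest p-values in each direction among genes with a mean level not below the lower quartile and knockdown libraries that lay together above or below the control, plus all hosts of the m6A, Wnt, p53, cell cycle and stress response lists and those at the limits of the rule. Some genes and 1 gene list that meet these rules are not reported here. Genes named beyond these were chosen to illustrate a gene list or after their values were seen. Alternatives covered scaling, pseudocount, filter, left-out libraries, a replicate block, input and ratio limits, and the limits of the rule. Summaries used Python 3.11.15, pandas 2.3.3 and scipy 1.17.1.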

Additional observations from a re-analysis of the deposited data

How the results depend on the processing

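No host passed the adjusted threshold for mRNA under any alternative run. For footprints the number of hosts past it, 0 with all libraries, ranged from 0 to 7 when 1 library was left out, with 1 host without knockdown 1 and 7 hosts without knockdown 2 of the footprint libraries (8 and 80 of all genes tested), and it was 0 under every scaling, pseudocount and filter tried. With a replicate block, which gives knockdown libraries of the same number a shared term, 6 hosts passed for footprints (FBXL16, DCXR, MRPL55, CCDC51, FGFRL1 and TP53I11, among 30 of all genes) and 2 for efficiency (FBXL16 at an adjusted p of 0.0269 and DCXR at 0.0413 by limma). The labels do not say that the numbers pair cultures, and the difference between knockdown 1 and 2 correlated at r = 0.37 between assays across 6782 genes, which are not independent. Hosts with an unadjusted p under 0.05 were 15 higher and 43 lower for footprints as deposited, 26 and 14 after median centring, and 27 and 18 after quantile normalisation. For efficiency they were 6 and 15, 14 and 6, and 14 and 8. Without 1 library these counts ranged from 30 to 104 for footprints, from 1 to 11 for mRNA and from 6 to 47 for efficiency, and with the block they were 122, 15 and 45. The median peak ratio of 6.13 over the mean of both replicates was 5.85 to 6.03 with 1 replicate left out and 8.71 with a ratio of at least 5 required in each. The median RIP ratio was 1.93 with inputs at or above the list's median (109 hosts). The number of sole peaks, 962, was 954 with windows sharing at least 50% of the shorter, 814 with a width under 200, 1079 with no limit on start and 1016 with the limits asked of replicate 1 only. Precision of the RIP values is limited by its single library, and that of peak ratios by inputs near 0.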

Other observations

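RIP listing of further host groups rests on 1 library, and differences between groups were not tested. Of 24 hosts on the ubiquitin enzyme list 10 were in the YTHDF1 list. Among them was TRIM14, listed by its TRIM symbol, with a ratio of 2.34 and peak ratios of 16 and 13.2. The deubiquitinase USP36 had a ratio of 2.38. Of all m6A genes on the ubiquitin enzyme list 47.4% were in the YTHDF1 list. Zinc finger hosts had 4 of 19, against 48.2% of all m6A zinc finger genes, and solute carrier hosts had 6 of 20, against 40.6%. Vesicle transport hosts, such as the small GTPases RAB1B and RAB5C, had 2 of 22, against 36.6%.

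After knockdown no host on any of these lists passed the adjusted threshold by limma. The 16 tested vesicle transport hosts had a median footprint difference of −0.57 (log2) and a median mRNA difference of 0.00, against −0.28 and −0.01 for all genes. Both knockdown footprint libraries were below the control for 10 of them, and for 51.2% of all genes. Transmembrane TMEM hosts (14 tested) had −0.44 and zinc finger hosts (13 tested) −0.41. The 5 tested chaperone hosts had 0.04, with CCT7 of the TRiC chaperonin at 1153 in the control and 1838 and 1257 in knockdown, and HSPB11 at 291, 158 and 166. The 10 tested cytosolic ribosomal hosts had −0.17. These medians are descriptions of small lists chosen with earlier results of these data known, and the differences between lists were not tested.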
